A study of Mus musculus with 2 samples.

Results

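The 5 genes described here are the T cell attracting CXC chemokines and their receptors: the ligands *Cxcl9*, *Cxcl10* and *Cxcl16* and the receptors *Cxcr3* and *Cxcr6*. They were picked by name out of the 27031 genes in the count table, and all 5 had UMIs (counted RNA molecules). Their RNA was followed over cell classes built from marker genes and over a control and a telmisartan pool of tumor leukocytes. Movement of T cells was not measured.

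Chemokines are small secreted proteins that steer leukocytes along a gradient. CXCL9 and CXCL10 are made mainly by macrophages and dendritic cells after interferon-gamma, *Cxcl10* also after type I interferons, and both bind CXCR3 on activated T cells and NK cells. CXCL16 is made as a membrane-anchored protein that the protease ADAM10 can cut free, and it binds CXCR6 on effector and tissue-resident T cells.

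The study asked how telmisartan, which blocks the angiotensin II receptor AT1, alters the leukocytes of colorectal tumors. MC38 cells, a mouse colon carcinoma line, were implanted under the skin of female C57BL/6 mice aged 6 to 8 weeks. From implantation on, 1 group received telmisartan by gavage at 5 mg/kg a day and the control group received vehicle. Live CD45+ cells were sorted from the tumors on day 13, pooled from 5 mice per group, labelled with Sample Tag 1 (control) or Sample Tag 2 (telmisartan) and loaded together on 1 BD Rhapsody capture. Both groups were of the same strain.

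After the limits on cell quality, 4542 control cells held 41768680 UMIs (median 8720.5 per cell) and 4427 telmisartan cells held 30939085 UMIs (median 6365). Levels are therefore given as CPM, the UMIs of a gene per 1000000 UMIs of the same cells. Each group was 1 pool, so no test between groups was possible and the differences have no replicate check. The 95% intervals, exact Poisson for UMI sums, Clopper-Pearson for shares and exact conditional binomial for log2 ratios, cover counting error only.

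A cluster was named for another class where 3 or more of that class's markers had levels 4-fold or more above those of all other cells, and the remaining clusters, most of the cells, were called macrophage-like. The classes, control and telmisartan in that order, were macrophage-like (4058 and 3994 cells), dendritic-like (364 and 295), T-like (73 and 114) and neutrophil-like (47 and 24). All 11 macrophage markers were found in macrophage-like cells, at 18526 CPM in control and 18849 CPM in telmisartan. The 8 T cell markers summed to 4074 and 5691 CPM in T-like cells against 13.5 and 16.2 CPM in macrophage-like cells. The members were left out of the genes used for clustering, so that their own levels did not shape the clusters.

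Macrophage-like cells fell into 7 subclusters, called M1 to M7 and described here by their leading genes. M1 was led by *Stfa3* and *Ereg*, M2 by interferon-gamma induced genes such as *Serpina3g*, *Iigp1* and *Gbp2* and by *Cxcl9* itself, M3 by *Gas6* and *Igf1*, M4 by *Ifit* genes, M5 by *Cxcl5*, M6 by genes of mitosis and M7 by genes of S phase. By the 4-fold rule only M3 passed any macrophage marker, 2 of 11, but most of the cells it was compared with were macrophage-like too. Summed macrophage markers were at 28091 CPM in M3 and at 16602 to 17917 CPM in M1, M2, M6 and M7. They were at 11659 CPM in M4 and 7511 CPM in M5, against 3411 CPM in dendritic-like cells. M4 (390 control and 774 telmisartan cells) had a median of 2433.5 UMIs per cell, the fewest of the 7. M4 passed 2 of 5 monocyte markers and M5 passed 1, so neither has a cell type name. M2 held 1280 control and 352 telmisartan cells, and a state of macrophages and a property of the control pool cannot be told apart there. Dendritic-like cells split into D1 (*Cd209a* type), D2 (mature, with *Ccr7* and *Fscn1*) and D3 (cDC1, with *Xcr1* and *Clec9a*). T-like cells split into T1 (led by *Gzmg* and *Ifng*), T2 (*Cd8a* and *Cd8b1*), T3 (regulatory, with *Foxp3*) and T4, 20 cells that carried both T cell and macrophage RNA.

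*Cxcl9* encodes a CXCR3 ligand that is among the most interferon-gamma dependent chemokines. Over both groups its level was 1347 CPM (1315 to 1380) in dendritic-like and 671 CPM (665 to 677) in macrophage-like cells. It was 123 CPM (71.6 to 197) in neutrophil-like and 69.0 CPM (53.0 to 88.3) in T-like cells, and these last intervals overlap. The ligand was thus mainly a transcript of dendritic-like and macrophage-like cells, and among the 4 classes taken whole it was highest per UMI in dendritic-like cells. Macrophage-like cells, 89.8% of the kept cells, held 86.9% of its 51520 UMIs. M2 alone, with 18.2% of the cells, held 49.3% over both pools, which differed. It held 20794 of 38334 UMIs in 1280 of 4542 control cells, and 4624 of 13186 UMIs in 352 of 4427 telmisartan cells.

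In macrophage-like cells *Cxcl9* stood at 872 CPM (33409 UMIs) in control and 399.6 CPM (11346 UMIs) in telmisartan. The level was 2.18-fold higher in the control pool, a log2 ratio of telmisartan over control of -1.13 (-1.16 to -1.10). Among the 3 ligands, 1 was at least 1.5-fold lower and 0 were at least 1.5-fold higher in this class. For comparison, 2.26% of the 11076 genes with at least 100 UMIs were that much lower and 4.74% that much higher, and their median log2 ratio was -0.04. *Cxcr3* and *Cxcr6*, with 23 and 26 UMIs in the class, did not reach that minimum.

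The share of macrophage-like cells with a *Cxcl9* UMI was 39.6% (38.1 to 41.1) in control and 26.1% (24.7 to 27.5) in telmisartan. Median depth was 8997 and 6476.5 UMIs per cell. With every cell thinned to 1000 UMIs, which leaves out 45 control and 71 telmisartan cells, the shares were 22.2% and 12.2%, so the groups also differed at equal depth. T-like cells had a share of 12.8% at a median of 3286 UMIs and 5.2% after thinning, and neutrophil-like cells 14.1% at 1746 UMIs and 7.04% after thinning. The part of RNA from other cells in these shares was not tested. The UMIs were unevenly spread: the median control macrophage-like cell had 0, the 90th percentile was 26 and the highest cell had 291. In telmisartan these were 0, 4 and 269.

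Within the subclusters of macrophage-like cells the *Cxcl9* gap was smaller than over the class in 6 of 7, M4 being the exception. M2 had 1720.4 CPM in control and 1640.1 CPM in telmisartan (log2 ratio -0.07, -0.12 to -0.02), close to level. M4 had 552 and 236 CPM (-1.23), M6 838 and 457 CPM (-0.87) and M7 1392 and 921 CPM (-0.60). M3 had 324 and 243 CPM (-0.42), M5 had 89.1 and 50.5 CPM (-0.82), and M1 had 175 and 166 CPM (-0.08, -0.19 to 0.02). All 7 ratios were below 0, and in 6 of 7, M1 being the exception, the interval was too. With each subcluster weighted by its cells in both groups together, *Cxcl9* was at 660.0 CPM in control and 528 CPM in telmisartan, a log2 ratio of -0.32. The ratio over the class as a whole thus depended on how the subclusters were weighted. Without M2, an alternative chosen after seeing the data, levels were 481 and 263 CPM (-0.87).

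Dendritic-like cells showed the same direction for *Cxcl9*, with 1674 CPM in control and 879.95 CPM in telmisartan (-0.93, -1.01 to -0.85). It was lower in each dendritic subcluster: 1982 and 1157 CPM in D1, 807 and 255 CPM in D2, and 1057 and 326 CPM in D3. The log2 ratios were -0.78, -1.66 and -1.70, each with its interval below 0. Summed macrophage markers in dendritic-like cells were 3679.5 CPM in control and 3028 CPM in telmisartan, with all 11 detected and *Lyz2* the most abundant. Set against *Lyz2*, dendritic-like cells had 949 *Cxcl9* UMIs per 1000 *Lyz2* UMIs and macrophage-like cells 63.8. Within macrophage-like cells that ratio ran from 13.2 in M1 to 164 in M2, and the part of macrophage RNA in dendritic-like levels was not tested.

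*Cxcl10*, the CXCR3 ligand that also responds to type I interferon, was ordered differently over the classes. Its level over both groups was 448 CPM (442.5 to 453) in macrophage-like and 261 CPM (247 to 276) in dendritic-like cells. Neutrophil-like cells had 123 CPM (71.6 to 197) and T-like cells 75.6 CPM (58.8 to 95.7), with overlapping intervals. Over both pools M2 held 38.1% of its 31231 UMIs, M6 20.8% and M4 14.1%, but the pools differed. Of 17939 control UMIs M2 held 8390, M6 3606, M3 1840 and M4 1624. Of 13292 telmisartan UMIs M2 held 3507, M6 2887, M4 2778 and M3 903. In control the *Ifit*-led M4 had the highest level of the subclusters, and in telmisartan M2 stood above it.

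Over macrophage-like cells *Cxcl10* differed little between the pools, with 455 CPM (17424 UMIs) in control and 438 CPM (12426 UMIs) in telmisartan. The log2 ratio was -0.06 (-0.09 to -0.02), within 1.5-fold and near the median of all genes. Its sign turned with the processing: the ratio was 0.27 with subclusters weighted by cells (485 and 586 CPM), 0.02 with at most 10% mitochondrial UMIs and 0.02 without M2. The share of cells with a UMI was 24.0% in control and 22.8% in telmisartan, and 11.76% and 11.96% after thinning to 1000 UMIs. T-like and neutrophil-like cells had shares of 11.2% and 8.45%, and of 1.73% and 7.04% after thinning. The 806 macrophage-like cells with the most *Cxcl10* UMIs, of 8052, held 93.3% of them, so most cells had 0.

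The small difference over the class covered subclusters that went opposite ways. *Cxcl10* was higher in telmisartan in M2, with 694 and 1244 CPM (0.84, 0.78 to 0.90), and in M5, with 229.5 and 432 CPM (0.91, 0.72 to 1.108). It was lower in M3, with 246 and 138 CPM (-0.84, -0.96 to -0.72). M4 stayed high in both pools at 1232 and 1136 CPM (-0.12), and M6 had 677 and 695 CPM (0.04). M1 had 116 and 129 CPM (0.15) and M7 had 286 and 278 CPM (-0.04). In all, 3 of 7 ratios were below 0 and 4 above.

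In dendritic-like cells *Cxcl10* was at 168 CPM (491 UMIs) in control and 393 CPM (804 UMIs) in telmisartan, a 2.34-fold higher level (1.22, 1.06 to 1.39). It rested on few cells, since a UMI was found in 73 of 364 and 74 of 295 cells and the highest 30 telmisartan cells held 91.9% of the UMIs. Of the 3 ligands in this class, 1 was at least 1.5-fold higher and 1, *Cxcl9*, at least 1.5-fold lower. Over the 5823 genes with at least 100 UMIs these shares were 3.59% and 3.3%, and the median log2 ratio was -0.02. The higher level lay in D1, with 182 and 543 CPM (1.58, 1.40 to 1.76). D2 had 117 and 62.6 CPM (-0.90, -1.89 to 0.0072) and D3 had 149 and 91.1 CPM (-0.71, -1.30 to -0.15). *Cxcl9* and *Cxcl10* thus moved in opposite directions within D1.

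*Cxcl16*, the ligand of CXCR6, was the most evenly spread of the 3 over single macrophage-like cells. Over both groups it stood at 609.9 CPM (588 to 632) in dendritic-like and 402 CPM (397 to 406) in macrophage-like cells. T-like cells had 88.7 CPM (70.5 to 110.3) and neutrophil-like cells 43.4 CPM (15.9 to 94.4), with overlapping intervals. A *Cxcl16* UMI was found in 76.6% of control and 71.2% of telmisartan macrophage-like cells, and in 28.7% and 29.1% after thinning to 1000 UMIs. T-like cells had a share of 16.0%, or 5.2% after thinning, and neutrophil-like cells 8.45%, or 5.63%. The 806 macrophage-like cells with the most *Cxcl16* UMIs held 37.2% of them, against 86.5% for *Cxcl9*.

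Between the pools *Cxcl16* was nearly level in macrophage-like cells, at 409 CPM (15646 UMIs) in control and 392 CPM (11137 UMIs) in telmisartan (-0.06, -0.09 to -0.02). The sign again turned with subclusters weighted by cells (377 and 408 CPM, 0.11) and without M2 (355 and 375 CPM, 0.08). M1 had the widest gap, with 289.6 and 374 CPM (0.37, 0.29 to 0.44). Ratios in the other M subclusters ran from -0.13 in M7 to 0.21 in M5. In dendritic-like cells the levels were 648 and 556 CPM (-0.22, -0.33 to -0.11). D2, the mature subcluster, was highest in both pools, with 821 and 867 CPM.

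**Figure D1:**
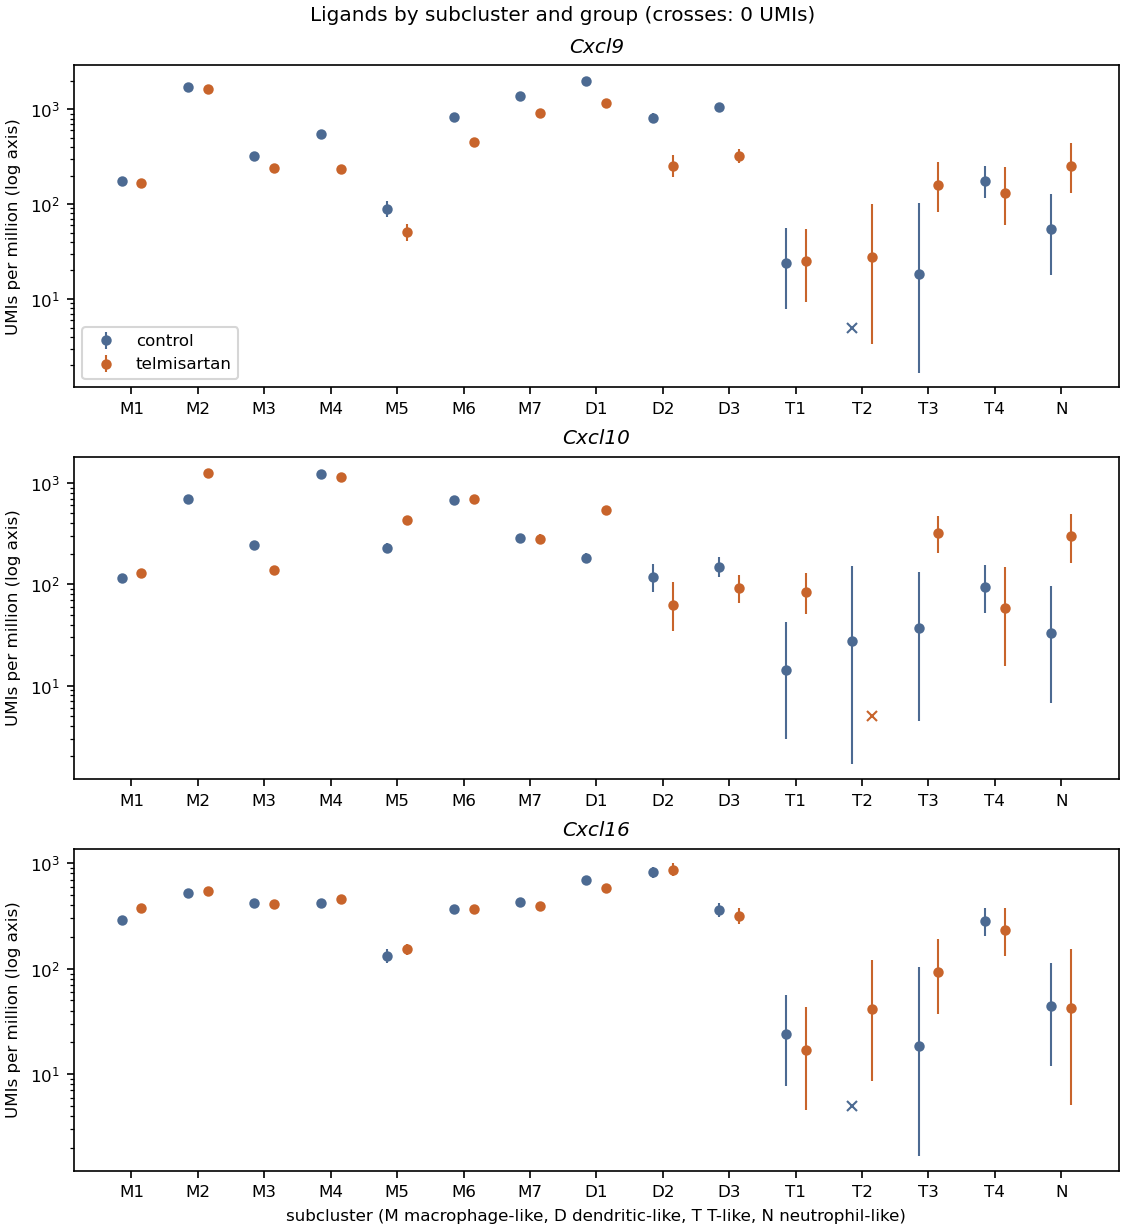
Level of *Cxcl9*, *Cxcl10* and *Cxcl16* (CPM, log axis) in each subcluster for control (blue) and telmisartan (orange), with exact Poisson 95% intervals and crosses at 0 UMIs. *Cxcl9* is lower in telmisartan in each M and D subcluster, whereas *Cxcl10* is higher in M2 (694 and 1244) and lower in M3 (246 and 138).

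*Cxcl10* was found more often in macrophage-like cells that had *Cxcl9* than in those that lacked it. At 1000 UMIs per cell, *Cxcl10* had a UMI in 25.4% of the macrophage-like cells with *Cxcl9* and in 9.04% of those without. The values were 24.9% and 8.03% in control and 26.4% and 9.95% in telmisartan, so both pools had the same order. *Cxcl16* had a UMI in 41.5% of macrophages with *Cxcl9* and 26.3% of those without. Each cell was thinned to the same depth, but capture may still vary between cells, and its part was not tested.

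*Cxcr6* encodes the receptor of CXCL16, and its RNA marked T-like cells. T-like cells, 2.09% of the kept cells, held 221 of its 249 UMIs (88.8%), at 242 CPM (211 to 276). Macrophage-like cells had 0.39 CPM (0.255 to 0.571), dendritic-like cells 0.403 CPM (0.0488 to 1.46), and neutrophil-like cells 0 UMIs in 71 cells. A UMI was found in 42.2% of T-like cells (35.1 to 49.7) at a median depth of 3286 UMIs and in 0.224% of macrophage-like cells at 7579.5. With cells thinned to 500 UMIs, which leaves out 0 T-like cells and 1 macrophage-like cell, the shares were 11.2% and 0.0248%. For the 0 of 71 neutrophil-like cells, at a median of 1746 UMIs, a limit of 3 counts in place of an interval allows up to 4.23% of cells with a UMI, which does not limit the cells that express the gene.

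Among T-like cells *Cxcr6* was at 360 CPM (256 to 492) in T2, 284 CPM (237 to 338) in T1 and 248 CPM (169 to 350) in T3, with overlapping intervals. T4, which carried macrophage RNA, had 100.5 CPM (63.7 to 151). Macrophage markers summed to 17015 CPM in T4 and 1109 CPM in T1. Sorting T-like cells by their own UMIs gave 375 CPM (295 to 469) in 36 cells with *Cd4* but no *Foxp3*, *Cd8a* or *Cd8b1*. It gave 321 CPM (267 to 384) in 99 cells with *Cd8a* or *Cd8b1* but no *Cd4* or *Foxp3*. The 35 cells with *Foxp3* but no *Cd8a* or *Cd8b1* had 92.2 CPM (57.05 to 141). The 15 cells with none of these UMIs had 19.8 CPM (2.4 to 71.5), and 2 cells were of both kinds. Without T4, an alternative chosen after seeing the data, these levels were 423, 377 and 133 CPM. Over both groups *Cxcr6* was thus lower in *Foxp3* cells than in these *Cd4* and CD8 cells. In telmisartan alone the intervals of the *Foxp3* cells (89.1 to 253) and the CD8 cells (243 to 399) overlap, as do those of T3, T1 and T2 over both groups.

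Between the pools *Cxcr6* in T-like cells was at 201 CPM (92 UMIs in 73 cells) in control and 284 CPM (129 UMIs in 114 cells) in telmisartan. The log2 ratio was 0.50 (0.10 to 0.90), under 1.5-fold. All 5 members passed the minimum of 20 UMIs in T-like cells, and 2 of 5 were at least 1.5-fold lower and 1 of 5 at least 1.5-fold higher. At these depths 13.9% of the 6288 genes compared were that much lower and 14.6% that much higher, so such a ratio was common. The direction of *Cxcr6* turned after thinning to 500 UMIs, at 11 UMIs in each pool (-0.64). With subclusters weighted by cells the levels were 286 and 293 CPM (0.03). Without T4, an alternative also chosen after seeing the data, they were 254 and 317 CPM (0.32, -0.11 to 0.75), an interval that spans 0.

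By subcluster, *Cxcr6* was at 274 and 294 CPM in T1, 464 and 306 CPM in T2 and 100.2 and 101 CPM in T4. Each of these log2 intervals spanned 0. T3 had 2 UMIs in 13 control cells (37.0 CPM) and 30 UMIs in 14 telmisartan cells (399.5 CPM), the latter in 4 cells. T3 was thus the subcluster with the widest gap, and its telmisartan value rests on 4 cells. Outside T4, the 13 telmisartan cells with *Foxp3* but no *Cd8a* or *Cd8b1* held 14 *Cxcr6* UMIs, in 2 cells. Not all 30 UMIs of T3 therefore lay in such cells. The share of T-like cells with a *Cxcr6* UMI was 42.5% in control and 42.1% in telmisartan.

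*Cxcr3*, the receptor of CXCL9 and CXCL10, was rare in these cells, with 69 UMIs in all. T-like cells held 37 of them (53.6%), at 40.5 CPM (28.5 to 55.9), and 11.2% of T-like cells had a UMI against 0.248% of macrophage-like cells. Macrophage-like cells had 0.345 CPM (0.219 to 0.517), and no UMI was found in neutrophil-like cells. At 500 UMIs per cell only 3 T-like cells kept a *Cxcr3* UMI, which is too few to compare shares. T2 had 138 CPM (77.4 to 228) and T1 15.7 CPM (6.31 to 32.3), so the T2 level was the higher of these beyond counting error. T3 had 54.2 CPM (21.8 to 112) and T4 35.0 CPM (15.1 to 68.9), which overlap both neighbours in the order.

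Dendritic-like cells had 9 *Cxcr3* UMIs, and all 9 lay in the cDC1 subcluster D3, in 7 of its 92 cells (7.61%, 3.11 to 15.05). The level in D3 was 9.22 CPM (4.22 to 17.5). D1 had 0 UMIs in 465 cells, for which the same limit of 3 counts allows up to 0.645% of cells with a UMI. D3 held 8 UMIs of the 8 T cell markers in all (8.2 CPM), with *Cd3e*, *Cd3g*, *Trac*, *Trbc2* and *Gimap4* at 0. No *Cxcr6* UMI was found in D3. After thinning to 1000 UMIs no D3 cell kept a *Cxcr3* UMI.

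In T-like cells *Cxcr3* was at 54.5 CPM (25 UMIs in 15 cells) in control and 26.4 CPM (12 UMIs in 6 cells) in telmisartan. The log2 ratio was -1.05 (-2.17 to 0.0011), so a difference was not detectable at this depth. The levels in control and telmisartan were 24.0 and 8.4 CPM in T1, 219 and 97.4 CPM in T2, and 74.0 and 40.0 CPM in T3. T4 had 8 UMIs in control and 0 in telmisartan. All 4 subclusters were lower in telmisartan, each with an interval that reaches past 0.

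**Figure D2:**
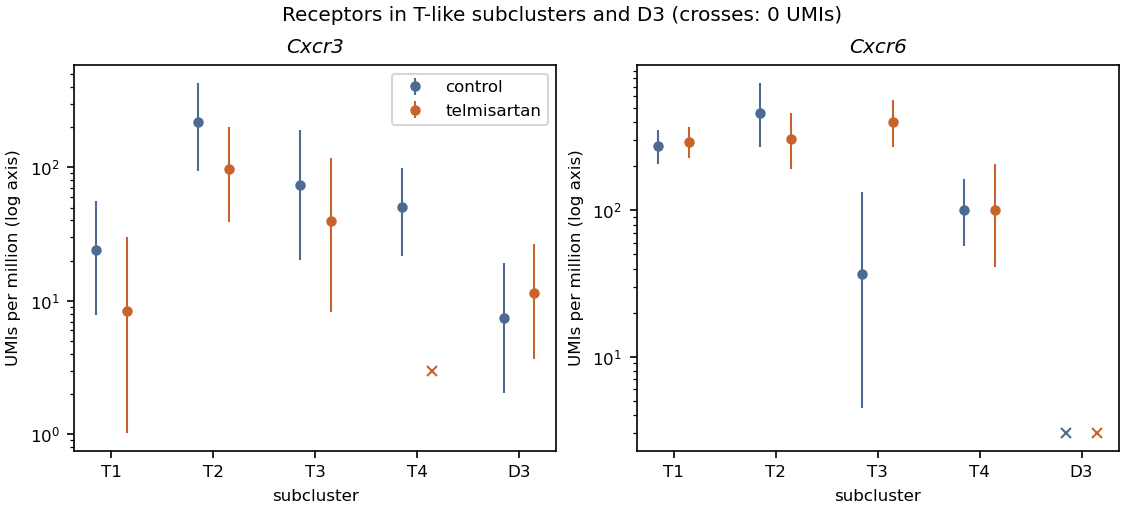
Level of *Cxcr3* and *Cxcr6* (CPM, log axis) in the T-like subclusters and D3 for control (blue) and telmisartan (orange), with exact Poisson 95% intervals and crosses at 0 UMIs. The groups overlap in each T subcluster but T3, where *Cxcr6* was at 37.0 and 399.5.

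The ligands also gave UMIs in T-like cells. *Cxcl9* was at 74.2 and 63.8 CPM, *Cxcl10* at 45.8 and 106 CPM and *Cxcl16* at 111 and 66.0 CPM in control and telmisartan. *Cxcl10* was the member that was at least 1.5-fold higher in this class (1.21, from 21 and 48 UMIs), and *Cxcl16* (-0.75) and *Cxcr3* were those at least 1.5-fold lower. Of the 48 *Cxcl10* UMIs in telmisartan, 24 lay in T3. In control, T4 held 28 of the 34 *Cxcl9* UMIs and 45 of the 51 *Cxcl16* UMIs of T-like cells. Macrophage markers, all 11 detected and *Lyz2* the most abundant, summed to 6322.5 and 4084 CPM in T-like cells. The 8 dendritic markers summed to 36 and 69 UMIs in T-like cells (78.5 and 151.9 CPM), and to 2 and 26 UMIs in T3. Of these, *Ccr7*, which T cells also express, had 16 and 50 UMIs in T-like cells, and *Xcr1*, *Clec9a* and *Cd209a* had 0 in either pool. With no removal by doublet score, the levels over both groups in T-like cells were 209 CPM for *Cxcl9*, 195 CPM for *Cxcl10* and 159 CPM for *Cxcl16*. Without T4 the UMIs in control and telmisartan were 6 and 20 for *Cxcl9*, 6 and 44 for *Cxcl10* and 6 and 14 for *Cxcl16*, so the direction of *Cxcl9* and *Cxcl16* turned. Neutrophil-like cells had 5 and 12 *Cxcl9* UMIs and 3 and 14 *Cxcl10* UMIs, in 10 and 6 of 71 cells. Both levels were higher in telmisartan, from 24 cells against 47 in control. The share of all genes with such ratios was not computed for this class. *Cxcl9* was at 54.9 and 254 CPM (2.21, 0.60 to 4.07) and *Cxcl10* at 32.9 and 296 CPM (3.17, 1.33 to 5.61). The part of macrophage or dendritic RNA in these levels was not tested.

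Interferon-gamma is the main inducer of *Cxcl9*, and 12 genes it induces were compared beside the ligands. In macrophage-like cells 11 of 12 had enough UMIs, of which 3 were at least 1.5-fold lower and 0 higher (2.26% and 4.74% of all genes), with a median log2 ratio of -0.37. Genes of this list lead M2, which held 1280 control and 352 telmisartan cells, so a change within cells and a shift of cells between subclusters cannot be told apart here. *Serpina3g*, a serine protease inhibitor, was at 41.8 and 17.8 CPM (-1.23). *Ciita*, the activator of MHC class II genes, was at 37.0 and 17.7 CPM (-1.06) and *Gbp4*, a guanylate-binding protein, at 47.5 and 30.4 CPM (-0.65). *Gbp2* (-0.52), *Cd274* (-0.25), *Nos2* (-0.05) and *Igtp* (0.01) were within 1.5-fold. *Cxcl9* thus had a ratio near those of the lowest 2 genes of the list. In dendritic-like cells 10 genes were compared, 1 was lower (*Gbp4*, -0.68), beside 3.3% of all genes, and the median was -0.21, whereas *Cxcl9* was at -0.93. In T-like cells 10 were compared, 3 were higher and 1 lower, beside 14.6% and 13.9% of all genes, with a median of 0.19.

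Of the interferon-gamma receptor and signal genes, 8 were compared in macrophage-like cells and 1 was at least 1.5-fold higher, beside 4.74% of all genes. This was *Irf1*, a transcription factor, at 157 and 238 CPM (0.60). *Ifng* itself was a T-like transcript, at 497 CPM (228 UMIs) in control and 808 CPM (367 UMIs) in telmisartan (0.70, 0.46 to 0.95). The T cell markers in the same cells were at 4074 and 5691 CPM and the macrophage markers at 6322.5 and 4084 CPM, so a change of *Ifng* and a change in the mix of RNA cannot be told apart. In T-like cells 3 of 9 genes of this list were at least 1.5-fold higher and 0 lower, beside 14.6% and 13.9% of all genes, with a median of 0.53.

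Genes induced by type I interferon, a further inducer of *Cxcl10*, stood apart from those of interferon-gamma. In macrophage-like cells all 10 were compared, 9 were at least 1.5-fold higher in telmisartan and 0 lower (4.74% and 2.26% of all genes), with a median log2 ratio of 1.07. *Oasl1* was at 12.8 and 40.0 CPM (1.65), *Rsad2* at 40.2 and 95.1 CPM (1.24) and *Isg15* at 40.1 and 86.0 CPM (1.10). *Ifit2*, at 18.3 and 25.2 CPM (0.46), was the exception. Of these 10 genes, 6 are among the leading genes of M4, which held 390 control and 774 telmisartan cells, so here too a change within cells and a shift of cells cannot be separated. M4 also had the highest median mitochondrial share of the M subclusters (11.3%), and the part of RNA quality was not tested. In dendritic-like cells 5 of 6 were higher, beside 3.59% of all genes, with a median of 0.91, and *Cxcl10* was at 1.22 there. In macrophage-like cells *Cxcl10*, at -0.06, did not share that difference.

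**Figure D3:**
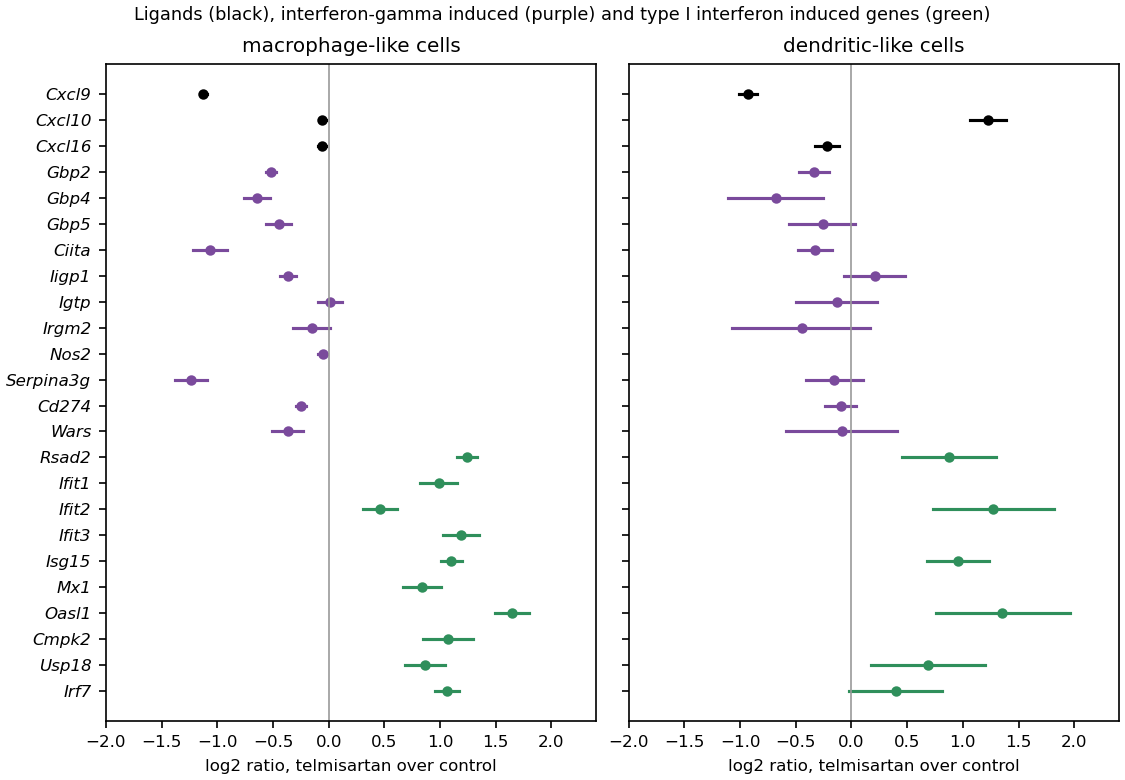
Log2 ratio of telmisartan over control for the ligands (black), interferon-gamma induced genes (purple) and type I interferon induced genes (green) in macrophage-like and dendritic-like cells, with exact 95% intervals and a line at 0. In macrophage-like cells *Cxcl9* is at -1.13 and *Cxcl10* at -0.06, whereas the type I list has a median of 1.07.

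Enzymes that act on the ligands were compared in the same classes. In macrophage-like cells *Adam10*, which sheds CXCL16, was at 186 and 141 CPM (-0.40), *Adam17*, another sheddase, at 167 CPM in both (0.00), and *Dpp4*, which clips CXCL9 and CXCL10, at 2.25 and 2.32 CPM (0.05). All 3 stayed within 1.5-fold in macrophage-like, dendritic-like and T-like cells, as did most genes. In macrophage-like cells 2.26% of all genes were that much lower and 4.74% higher. These shares were 3.3% and 3.59% in dendritic-like and 13.9% and 14.6% in T-like cells. *Dpp4* was mainly a dendritic-like transcript, at 145 and 146 CPM. *Cxcl11*, another CXCR3 ligand, is annotated as a polymorphic pseudogene in this genome and was not analysed here.

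Of 13 other chemokines that attract T cells, 5 were compared in macrophage-like cells. *Ccl17*, a CCR4 ligand, was at 66.6 and 16.0 CPM (-2.06) and was the 1 gene at least 1.5-fold lower, with 0 higher (2.26% and 4.74% of all genes) and a median of -0.32. *Ccl5*, which attracts effector T cells, was at 51.5 and 41.1 CPM (-0.32) and *Ccl4* at 415 and 584 CPM (0.49). In dendritic-like cells *Ccl17* (-0.69) and *Ccl22* (-0.61) were lower and *Ccl4* was higher (0.87), of 5 compared (3.3% and 3.59% of all genes). In macrophage-like and dendritic-like cells *Cxcl9* was therefore not the only T cell attracting ligand with a lower level in the telmisartan pool. In T-like cells 5 of 7 were higher and 2 lower, where 14.6% and 13.9% of all genes were. Among them were *Ccl5* at 369 and 889 CPM (1.27) and *Xcl1*, which attracts cDC1, at 427 and 125 CPM (-1.77). *Ccl17* (3 and 36 UMIs, 3.60) and *Ccl22* (5 and 22 UMIs, 2.15) were higher there, opposite to dendritic-like cells. The dendritic markers summed to 78.5 and 151.9 CPM in T-like cells, and the part of dendritic RNA was not tested. Summed NK cell markers in T-like cells were at 177 and 94.7 CPM, and the part of NK cells in these ratios was not tested.

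Other chemokine receptors, listed together with the lipid receptor *S1pr1*, were set beside *Cxcr3* and *Cxcr6*. In T-like cells 7 of 10 were compared. Of these, 3 were at least 1.5-fold higher, *S1pr1* (0.91) among them, and 1 lower, beside 14.6% and 13.9% of all genes compared. *Ccr7*, a receptor for homing to lymph nodes, was at 34.9 and 110.1 CPM (1.66) and *Ccr2* at 580.1 and 369.9 CPM (-0.65). *Cxcr6* lay between these, and its 0.50 was close to the list's median of 0.44. The summed T cell markers moved the same way in these cells, from 4074 to 5691 CPM, so the ratios of T cell genes here are not independent of the mix of RNA. In macrophage-like cells 6 were compared and 1 was higher, beside 4.74% of all genes. This was *S1pr1* (1.26), which is not a chemokine receptor. In dendritic-like cells 0 of 4 differed by that much, where 3.59% of all genes were higher and 3.3% lower. Among 16 genes of T cell state, 3 were higher and 3 lower in T-like cells, beside the same 14.6% and 13.9% of all genes, with a median of -0.22. *Pdcd1*, a checkpoint receptor, was at 153 and 319 CPM (1.06) and *Tbx21*, a transcription factor that can drive *Cxcr3*, at 74.2 and 149.7 CPM (1.01). *Prf1*, which encodes perforin, was at 506 and 286 CPM (-0.82). The other lower genes were *Itga1* (-0.84, -1.51 to -0.20) and *Itgae* (-0.65, -1.56 to 0.23), and the other higher gene was *Lag3* (0.71, -0.24 to 1.71). The NK cell markers summed to 177 and 94.7 CPM in the same cells, and the part of NK cells in the *Prf1* ratio was not tested.

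Genes with the most similar patterns were taken over 26 profiles, each a subcluster and group with at least 20 cells, by Pearson r of log2(CPM + 10) among 10312 genes. The profiles come from 1 capture and 2 pools and are not independent. For *Cxcl9* these were *Mgl2* (0.88), *Spint1* (0.87), *Pak1* (0.87), *Tnfrsf13b* (0.86) and *F11r* (0.86), and for *Cxcl10* *Fcgr1* (0.85), *Cebpa* (0.82), *Fes* (0.82), *Itga5* (0.80) and *Ltbr* (0.80). For *Cxcl16* they were *F11r* (0.92), *Cttnbp2nl*, *Cd83*, *Ctsh* and *Plekho1* (0.91 in each of the last 4 after rounding). *Cxcr6* was closest to the T cell genes *Gimap3* (0.998), *Lat* (0.997), *Cd3g* (0.996), *Gimap4* (0.996) and *Il2rb* (0.994), and *Cxcr3* to *Asrgl1* (0.94), *Rab19* (0.93), *Rinl* (0.92), *Usp48* (0.91) and *Cysltr2* (0.91). Between members, r was 0.66 for *Cxcl9* and *Cxcl10*, 0.85 for *Cxcl9* and *Cxcl16*, and 0.85 for *Cxcr3* and *Cxcr6*. It was 0.59 for *Cxcl10* and *Cxcl16*, and below 0 for each ligand with each receptor (-0.79 to -0.66). T3 and T4 had under 20 cells in each pool and gave no profile. *Cxcr3* had 69 UMIs in all, under the minimum of 200 set for the genes compared. Its r with *Cxcr6* is taken over groups of cells and not over single cells. *Cxcr6* had a UMI in 42.9% of T-like cells with *Cxcr3* and 42.2% of those without, or 12.5% and 20% at 1000 UMIs per cell.

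In GENCODE M21 on GRCm38, all 5 members are protein-coding. *Cxcl9* (chr5:92321347-92328079, minus strand) and *Cxcl10* (chr5:92346638-92348889, minus strand) are neighbours with 18558 bases between them, yet differed in ratio in macrophage-like and dendritic-like cells. *Cxcl16* lies at chr11:70453983-70459984 on the minus strand, *Cxcr3* at chrX:101731535-101734269 on the minus strand and *Cxcr6* at chr9:123806475-123811760 on the plus strand. Each of 3 members overlaps a gene on the opposite strand, and without strand the reads of a member and its partner cannot be told apart. *Art3* over *Cxcl10* had 180 UMIs in macrophage-like cells, *Zmynd15* over *Cxcl16* had 704 there, and *Fyco1* over *Cxcr6* had 32 in T-like cells. These are few beside the 29850 *Cxcl10* and 26783 *Cxcl16* UMIs of macrophage-like cells and the 221 *Cxcr6* UMIs of T-like cells. In macrophage-like cells, however, *Fyco1* had 1187 UMIs and *Cxcr6* 26.

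Promoter sequences from RefSeq (GRCm38.p6, 250 bases before to 50 after the start of transcription) matched 4 of the 5 members. Both strands were searched for GAAA, any 2 bases and GAAA (an interferon-stimulated response element), TTCNNNGAA (a GAS element), GGG, any 2 bases and TTTCC (a kappaB site) and AGGTGTGA (a T-box site). These occurred in 3.44%, 8.3%, 1.63% and 1.28% of 32851 promoters. Among the 4 members the searches gave 1 match, GAAAGTGAAA in *Cxcl10*, with its first base 213 before the start. The promoters of the CXCR3 ligands, neighbours with different ratios, are shown 5′ to 3′ on the minus strand, chr5:92328030-92328329 for *Cxcl9* and chr5:92348840-92349139 for *Cxcl10*, with the match in capitals. A match is a run of letters and not a tested site, and no match means only that these exact letters were absent. Near forms were not counted, such as GGGAAATTCC in *Cxcl10*, which departs from the kappaB letters at 1 base.
Cxcl9: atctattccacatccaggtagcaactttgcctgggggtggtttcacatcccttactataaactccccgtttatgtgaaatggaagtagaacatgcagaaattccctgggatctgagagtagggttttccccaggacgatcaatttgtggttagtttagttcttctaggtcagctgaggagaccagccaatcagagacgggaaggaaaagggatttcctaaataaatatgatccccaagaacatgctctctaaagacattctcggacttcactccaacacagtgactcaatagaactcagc
Cxcl10: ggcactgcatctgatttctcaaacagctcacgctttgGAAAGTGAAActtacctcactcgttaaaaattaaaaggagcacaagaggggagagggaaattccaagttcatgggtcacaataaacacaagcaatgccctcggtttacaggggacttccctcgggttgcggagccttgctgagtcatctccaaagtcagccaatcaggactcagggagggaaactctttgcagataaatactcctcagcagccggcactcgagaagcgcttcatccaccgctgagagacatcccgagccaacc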

How the data were processed

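The authors used the WTA pipeline of BD Rhapsody (GRCm38, GENCODE M19) to count UMIs of each gene in each cell, and the deposited values are these counts, with intronic reads included, beside counts of Sample Tag reads. For 20726 putative cells, a group required at least 10 tag reads with 75% on 1 tag. Cells with 150 to 5000 genes and up to 20% mitochondrial UMIs entered, and 942 of these were removed by Scrublet score (scanpy 1.11.5, Python 3.11.15), the share that tag multiplets predict. Clustering used Seurat 5.3.0 in R 4.3.3 with 2000 variable genes, 30 principal components (15 under 500 cells), 20 neighbors and resolution 0.5, then macrophage-like, dendritic-like and T-like cells were each clustered again at resolutions 0.45, 0.05 and 0.6, picked on a grid to reach at least 6, 3 and 4 subclusters. TMM factors came from edgeR 4.0.16. The ratio step was tested on simulated data. The members and lists were chosen with earlier results of these data known. Genes named are the members, genes of the lists, the 5 most similar per member, cell type markers, leading genes of clusters and genes that overlap a member. Which list and leading genes are named was chosen after their values were seen. Other tag shares, cell limits, resolutions and scalings were tried. Tumor growth and histology were not analysed here.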

Additional observations from a re-analysis of the deposited data

Results flagged for a closer look

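*Cxcl10* had different ratios in different cells under the same comparison of telmisartan with control. Its log2 ratio was -0.056 in macrophage-like and 1.22 in dendritic-like cells, -0.84 in M3 and 0.91 in M5, and -0.71 in D3 and 1.58 in D1. In dendritic-like cells the highest 30 of 295 telmisartan cells held 91.9% of its UMIs. The macrophage-like value has no fixed sign, since it was 0.27 with subclusters weighted by cells, 0.024 with at most 10% mitochondrial UMIs and 0.017 without M2, the last chosen after seeing the data. These differences between cell groups were not tested, since each group of mice was 1 pool.

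Cells that the comparisons did not use also carried signal. *Cxcr6* had 4 UMIs in 3586 control and 22 UMIs in 5373 telmisartan cells over the mitochondrial limit, a log2 ratio of 1.84. It had 1 and 5 UMIs in the 74 and 16 cells over the gene maximum (4.57, 1.41 to 10.13) and 20 and 45 UMIs in the 536 and 406 cells removed by doublet score (1.80). Over all kept cells, of which T-like cells were 73 in control and 114 in telmisartan, it was at 0.79. *Cxcl10* in cells over the gene maximum was at 417 and 536 CPM (0.36), whereas its ratio was -0.15 over the mitochondrial limit and -0.14 in cells removed by doublet score. These differences were not tested either.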

How the results depend on the processing

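Alternatives were run for 5 log2 ratios, those of the 3 ligands in macrophage-like and the 2 receptors in T-like cells, and not for ratios in dendritic-like cells or single subclusters. Of 73 recomputed values, 50 stayed within the counting interval of the reported value, 16 left it and 7 turned sign. The unscaled alternative follows the depth of the groups and shifts all genes of a class alike, so its values, counted here, say nothing about a single gene. The cause was not tested in any of the others. *Cxcl9* in macrophage-like cells was below 0 in 15 of 15 alternatives: -1.20 with a tag share of 90%, -1.17 with at most 10% mitochondrial UMIs, -1.01 with no doublet removal, -1.23 as the mean of UMIs per 10000, -1.54 unscaled per cell, -1.20 thinned and -0.32 with subclusters weighted by cells. *Cxcl10* was at 0.024 with at most 10% mitochondrial UMIs, -0.13 as the mean of UMIs per 10000, -0.46 unscaled, -0.10 thinned and 0.27 weighted. *Cxcl16* was at -0.47 unscaled, -0.018 thinned and 0.11 weighted. *Cxcr6* in T-like cells was at -0.16 unscaled, -0.64 thinned and 0.032 weighted. *Cxcr3* stayed within its wide interval in 14 of 14, from -1.70 to -0.64. Alternatives chosen after seeing the data left out M4 and M5 (*Cxcl9* -1.04, *Cxcl10* -0.24) or M2 (*Cxcl9* -0.87, *Cxcl10* 0.017, *Cxcl16* 0.0795). Of 140 recomputed class levels 124 stayed within their interval. With no doublet removal, T-like levels were 209 CPM for *Cxcl9* (69.0 reported), 195 for *Cxcl10* (75.6) and 159 for *Cxcl16* (88.7), and neutrophil-like *Cxcl16* was at 118 (43.4). Nevertheless the class with the highest level was the same in 8 of 8 settings for each member.

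Each group was 1 pool of 5 mice, so variation between mice could not be separated from treatment. T-like cells number 187, and *Cxcr3* rests on 37 UMIs there. M2 lies mostly in the control pool and M4 has few UMIs per cell. Classes were rebuilt from markers and may not match the study's. No paired analysis was possible because each group was 1 pool and no test was made.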

Other observations

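In cells that the comparisons did not use *Cxcl9* was also lower in telmisartan. Its levels were 318 and 225 CPM in cells over the mitochondrial limit (log2 ratio -0.50, -0.60 to -0.39), 970.5 and 358 CPM in cells over the gene maximum (-1.44, -1.68 to -1.20) and 577 and 502 CPM in cells removed by doublet score (-0.20, -0.28 to -0.12). *Cxcl16* was at 211 and 200.4 CPM over the mitochondrial limit, with an interval of the ratio that spans 0.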
